A study of Mus musculus with 18 samples.

Results

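The genes described are the ligands Cxcl9, Cxcl10 and Cxcl11 with their receptor Cxcr3, the ligand Cxcl16 with its receptor Cxcr6, and the ligand Ccl5. These 7 genes were picked by name for their known part in drawing T cells into tissue, out of 57010 gene IDs in the deposited count tables, and all 7 were found. Earlier results of these data were known when they were picked, so the counts of called genes below are no independent test. They were measured by total RNA sequencing of uterus and ovary from C57B6/J mice aged 20 to 25 weeks. Homozygous ARE-/-, heterozygous ARE+/- and wild-type (WT) mice gave 3 libraries each per tissue, 18 in all. The labels do not spell out ARE. From general knowledge it is the AU-rich element of the Ifng transcript, a stretch that marks the message of interferon gamma for decay, and mice without it make the cytokine for longer. Nothing in the labels limits the altered allele to a cell type, and no estrous stage was given in the sources used here.

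CXCL9, CXCL10 and CXCL11 are small secreted proteins that cells make when interferon gamma acts on them. They bind CXCR3, a receptor on activated T cells and natural killer cells, so that T cells that make interferon gamma are drawn to the cells that sense it. CXCL16 is anchored in the membrane of macrophages and dendritic cells and can be shed by proteases, and its receptor CXCR6 marks T cells that reside in tissue and some innate lymphocytes. CCL5 is stored and released by memory CD8 T cells and natural killer cells and acts through receptors that include CCR1 and CCR3.

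Depth ran from 33185496 to 49720354 counts per uterus library and from 38132822 to 46647171 per ovary library. Levels are given as CPM, for which each library was scaled to a common size within its tissue by edgeR's TMM method. CPM of uterus and ovary therefore share no joint TMM scaling. Log2 fold changes are given with standard errors (SE), and a gene is called higher or lower where the edgeR quasi-likelihood p, adjusted by Benjamini-Hochberg over all genes tested in a tissue, was under 0.05. The altered gene, Ifng, had 96, 130 and 56 counts in ARE-/- uterus, 58, 36 and 70 in ARE+/- uterus and 4, 6 and 0 in WT uterus. In the ovary the same gene had 51, 38 and 50 counts in ARE-/-, 18, 10 and 28 in ARE+/- and 4, 0 and 4 in WT, where a count of 0 allows up to the floor of 3. Its log2 fold change in ARE-/- was 4.93 ± 0.80 in the uterus (edgeR adjusted p = 0.011; 0.0665 without WT replicate 1) and 4.04 ± 0.80 in ovary tissue (adjusted p = 0.013; 0.0507 without WT replicate 1). Summed ovary markers were 1849 to 7802 CPM in ovary libraries and 58.7 to 275 CPM in uterus libraries, and summed uterus markers were 344 to 1209 CPM in the uterus and 143 to 330 CPM in the ovary. Uterus ARE-/- replicate 1 stood apart, with 5761 CPM of adipocyte markers, against 832 and 431 in ARE-/- replicates 2 and 3 and 16.9 to 25.0 in WT uterus, and with 7265 CPM of red blood cell markers. It was also the uterus library at 275 CPM of ovary markers and 344 CPM of uterus markers. Ovary ARE-/- replicate 3 had the highest sum of T cell markers in the ovary, 149 CPM, and the lowest of ovary markers, 1849 CPM. It also had the highest ovary sums of adipocyte markers, 995 CPM, and of B cell markers, 55.5 CPM. Adipocyte markers varied widely among the other ovary libraries. They summed to 593 and 28.7 CPM in ARE-/- replicates 2 and 6, and to 638, 101 and 327 CPM in ARE+/- replicates 1, 2 and 4. In WT ovary they summed to 76.1 to 113 CPM. The part of such tissue differences in the levels below was not tested. By their titles, 2 libraries were backups, WT replicate 1 in the uterus and ARE-/- replicate 6 in the ovary.

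In ARE-/- uterus 5 of the 7 genes rose against WT: Cxcl9, Cxcl10, Cxcr3, Cxcr6 and Ccl5. Among all genes tested there, 3.36% rose. In ARE-/- ovary the 6 genes that passed the filter on low counts all rose, against a background of 6.31%, and Cxcl11 was not tested. In ARE+/- uterus 3 of 7 rose, namely Cxcl9, Cxcl10 and Cxcr3, where the background was 1.08%. In ARE+/- ovary 3 of 6 rose, namely Cxcl9, Cxcl10 and Ccl5, where it was 1.35%. Of the 7 genes 0 fell in these 4 comparisons, where 0.391%, 4.15%, 0.0535% and 0.356% of all genes fell in the same order. DESeq2 made more calls, covering 9.97% of genes for ARE-/- uterus, 16.9% for ARE-/- ovary, 5.65% for ARE+/- uterus and 6.39% for ARE+/- ovary, and called 7 of 7, 6 of 6, 5 of 7 and 5 of 6 of these genes. All 3 libraries lay above all 3 WT libraries for 7 of 7 genes in ARE-/- uterus (12.5% of genes tested), 7 of 7 in ARE-/- ovary (16.1%), 6 of 7 in ARE+/- uterus (15.7%) and 6 of 7 in ARE+/- ovary (14.7%), and the exception in ARE+/- mice was Cxcl11 in both tissues. The ovary shares are of genes that passed the filter, which left out Cxcl11. The 6 tested genes lay above WT in both ARE genotypes of the ovary.

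**Figure D1:**
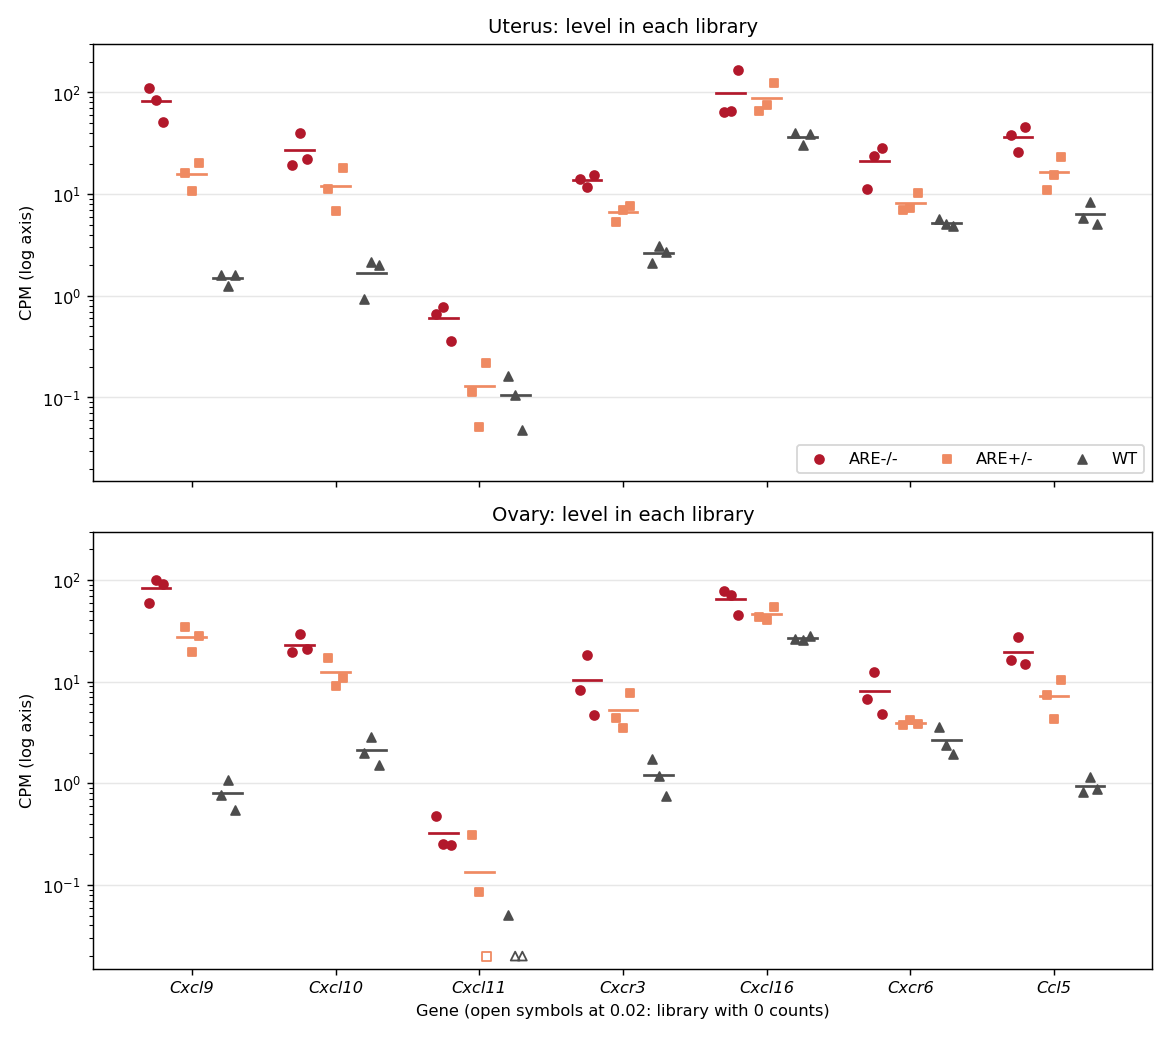
Level of each of the 7 genes in each library, in CPM on a log axis, for uterus (top) and ovary (bottom); circles are ARE-/-, squares ARE+/- and triangles WT, bars are means over 3 libraries, and open symbols mark 0 counts. Cxcl9 reached 50.8 to 110.4 CPM in ARE-/- uterus and 1.24 to 1.61 CPM in WT uterus, the widest gap in that tissue.

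Cxcl9 showed the largest change of the genes tested among the 7 in both tissues. Uterus levels were 110.4, 84.1 and 50.8 CPM in ARE-/- replicates 1, 2 and 3, 16.0, 10.8 and 20.4 CPM in ARE+/- replicates, and 1.61, 1.24 and 1.60 CPM in WT replicates. Ovary levels were 59.7, 100.6 and 92.3 CPM in ARE-/- replicates 2, 3 and 6, 34.6, 19.55 and 28.25 CPM in ARE+/- replicates 1, 2 and 4, and 0.767, 1.07 and 0.552 CPM in WT replicates 1, 2 and 3. The 3 genotypes did not overlap in either tissue, and every ARE+/- library lay between. Against WT, the log2 fold change in ARE-/- mice was 5.79 ± 0.38 for the uterus (edgeR adjusted p = 0.00052, a 55.2-fold difference) and 6.72 ± 0.36 in the ovary (adjusted p = 1.8e-05). In ARE+/- mice it was 3.41 ± 0.34 for the uterus (adjusted p = 0.0056) and 5.10 ± 0.34 for the ovary (adjusted p = 0.00016). The call in ARE+/- uterus ended without WT replicate 1 (3.47, adjusted p = 0.0635) or WT replicate 3 (3.46, adjusted p = 0.0608). In RNA from whole tissue, more cells that make a transcript and more of it per cell cannot be told apart.

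Cxcl10, the second CXCR3 ligand, also rose in both tissues and both ARE genotypes. Uterus libraries gave 19.35, 39.7 and 22.1 CPM in ARE-/- replicates 1, 2 and 3, 11.2, 6.80 and 17.9 CPM in ARE+/- replicates, and 0.938, 2.13 and 2.00 CPM in WT replicates. Ovary libraries gave 19.6, 29.15 and 20.8 CPM in ARE-/- replicates 2, 3 and 6, 17.15, 9.03 and 10.9 CPM in ARE+/- replicates 1, 2 and 4, and 1.99, 2.83 and 1.505 CPM in WT replicates. The genotypes again did not overlap in either tissue, although the highest ARE+/- library came close to the lowest ARE-/- library in both. Against WT, the log2 fold change was 3.99 ± 0.49 in ARE-/- uterus (edgeR adjusted p = 0.0026) and 3.46 ± 0.32 in ARE-/- ovary (adjusted p = 0.00032). It was 2.82 ± 0.47 in ARE+/- uterus (adjusted p = 0.026) and 2.55 ± 0.31 in ARE+/- ovary (adjusted p = 0.0042). The ARE+/- uterus call ended when WT replicate 1 (2.53, adjusted p = 0.13), WT replicate 3 (2.95, adjusted p = 0.129), ARE+/- replicate 1 (2.86, adjusted p = 0.0658) or ARE+/- replicate 3 (2.41, adjusted p = 0.0695) was left out.

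Cxcl9, Cxcl10 and Cxcl11 are neighbours on the minus strand of chromosome 5. In the GENCODE M32 annotation of the count tables Cxcl9 (ENSMUSG00000029417) runs from 92469206 to 92475938, Cxcl10 (ENSMUSG00000034855) from 92494497 to 92496748 and Cxcl11 (ENSMUSG00000060183) from 92507403 to 92513344. Because Cxcl9 and Cxcl10 were called in all 4 comparisons with WT, the 250 bases before the start of each are shown, 5′ to 3′ on the strand of the gene, from RefSeq with the GRCm38.p6 build. The windows are chr5:92328080-92328329 for Cxcl9 and chr5:92348890-92349139 for Cxcl10, both minus strand. Capitals mark matches, on either strand, to a gamma-activated site (TTCNNNGAA), an interferon-stimulated response element (GAAA, any 2 bases, GAAA), an NF-kappaB core (GGGNNTTCC), a T-box core (AGGTGT) or a TATA box (TATAAA).
Cxcl9: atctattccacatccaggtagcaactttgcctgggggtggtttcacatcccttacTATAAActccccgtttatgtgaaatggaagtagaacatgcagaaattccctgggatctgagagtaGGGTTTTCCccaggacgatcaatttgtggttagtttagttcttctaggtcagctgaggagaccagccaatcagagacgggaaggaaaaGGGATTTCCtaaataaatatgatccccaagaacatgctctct
Cxcl10: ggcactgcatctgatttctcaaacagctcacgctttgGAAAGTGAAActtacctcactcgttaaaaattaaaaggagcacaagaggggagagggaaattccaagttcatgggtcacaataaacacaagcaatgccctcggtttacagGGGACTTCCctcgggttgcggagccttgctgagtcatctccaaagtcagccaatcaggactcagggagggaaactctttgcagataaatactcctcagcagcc
The Cxcl9 window held an NF-kappaB core at 130 to 122 bases before the start and a second at 42 to 34, and the letters TATAAA at 195 to 190. The Cxcl10 window held an interferon-stimulated response element at 213 to 204 bases before the start and an NF-kappaB core at 103 to 95. No matches overlapped. Of 32851 RefSeq promoter windows of 300 bases, 5.82% held the NF-kappaB core, 3.44% the interferon-stimulated response element, 8.3% the gamma-activated site, 13.7% the T-box core and 13.6% the TATA box. Windows were at hand for 4 of the 7 genes, and those of Cxcr3 and Cxcr6 matched none of these patterns. A match describes letters only and is not evidence of binding.

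Cxcl11 stayed at the edge of detection. Its counts were 24, 32 and 12 in ARE-/- uterus, 6, 2 and 8 in ARE+/- uterus and 6, 5 and 2 in WT uterus. Ovary counts were 19, 10 and 10 in ARE-/-, 12, 4 and 0 in ARE+/- and 2, 0 and 0 in WT. The ARE-/- libraries lay above all WT libraries in both tissues, while ARE+/- and WT libraries overlapped in both. In the uterus the log2 fold change for ARE-/- was 2.49 ± 0.80 (edgeR adjusted p = 0.13), which was not called. As sums over 3 libraries, ARE-/- had 68 counts and WT 13 in the uterus, a depth-adjusted ratio of 5.66 (95% counting interval 3.1 to 11.2). In the ovary ARE-/- had 39 and WT 2, a ratio of 18.8 (4.87 to 161). These intervals cover counting error only and are too narrow, since both mates of a read pair were counted. RefSeq lists mouse Cxcl11 as a transcribed pseudogene, and C57BL/6 mice are known not to make the protein. In the annotation 1582 of its exon bases (41.7%) also belong to Gm2673 on the other strand, and counts were made without regard to strand.

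Cxcr3 (ENSMUSG00000050232, chromosome X, 100775141 to 100777875, minus strand) encodes the receptor of these ligands. Among uterus libraries it stood at 14.2, 11.9 and 15.6 CPM in ARE-/- replicates 1, 2 and 3, 5.26, 7.06 and 7.62 CPM in ARE+/- replicates, and 2.09, 3.07 and 2.67 CPM in WT replicates. Among ovary libraries it stood at 8.23, 18.45 and 4.74 CPM in ARE-/- replicates 2, 3 and 6, 4.42, 3.54 and 7.80 CPM in ARE+/- replicates 1, 2 and 4, and 1.74, 1.17 and 0.753 CPM in WT replicates. The uterus libraries formed separate groups by genotype, whereas ARE-/- replicate 6 of the ovary lay below the highest ARE+/- library. The log2 fold change against WT was 2.41 ± 0.27 in ARE-/- uterus (edgeR adjusted p = 0.0016) and 3.10 ± 0.56 in ARE-/- ovary (adjusted p = 0.011). Without ovary ARE-/- replicate 3, the library richest in T cell markers, the ovary value was 2.39 ± 0.44 (adjusted p = 0.0176). In ARE+/- mice the change was 1.35 ± 0.26 for the uterus (adjusted p = 0.047) and 2.10 ± 0.55 for the ovary (adjusted p = 0.10, not called). The ARE+/- uterus call ended without any 1 of 6 libraries, WT replicate 1 or 3, any ARE+/- replicate, or ARE-/- replicate 2, where the value lay at 1.21 to 1.49 and the adjusted p at 0.059 to 0.244. Summed T cell markers were 140 to 183 CPM in ARE-/-, 57.2 to 73.9 in ARE+/- and 29.8 to 41.4 in WT uterus, and 68.6 to 149, 44.4 to 61.9 and 26.0 to 28.4 CPM in the same order of genotypes in the ovary. Of the 13 T cell markers 12 rose in ARE-/- uterus and 12 in ARE-/- ovary, and no marker of the list was at 0 in any library; their part in the level of Cxcr3 was not tested.

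Cxcl16 (ENSMUSG00000018920, chromosome 11, 70344809 to 70350810, minus strand) had the smallest log2 fold change of the ligands tested in ARE-/- mice. Per exon length it had the highest mean WT level of the 7 genes, though in the uterus its range overlapped that of Ccl5. Its uterus levels were 63.7, 65.0 and 164.7 CPM in ARE-/- replicates 1, 2 and 3, 65.4, 75.7 and 124.7 CPM in ARE+/- replicates, and 39.6, 30.6 and 38.75 CPM in WT replicates. Its ovary levels were 77.8, 71.8 and 45.5 CPM in ARE-/- replicates 2, 3 and 6, 43.5, 40.3 and 53.8 CPM in ARE+/- replicates 1, 2 and 4, and 26.2, 25.7 and 28.0 CPM in WT replicates. Both ARE genotypes lay above WT in both tissues but overlapped each other. In ARE-/- ovary Cxcl16 rose by 1.29 ± 0.19 on the log2 scale (edgeR adjusted p = 0.0039). The value in ARE-/- uterus, 1.43 ± 0.39, was of similar size but had a larger error and was not called (adjusted p = 0.079), nor were 1.29 ± 0.39 in ARE+/- uterus (adjusted p = 0.16) and 0.78 ± 0.19 in ARE+/- ovary (adjusted p = 0.073). The antisense gene Zmynd15 shares 552 exon bases (20.5%) with Cxcl16, and it changed by 1.32 ± 0.42 in ARE-/- uterus (adjusted p = 0.12) and 1.37 ± 0.21 in ARE-/- ovary (adjusted p = 0.0045). Reads over the shared bases cannot be told apart without strand. Summed macrophage markers were 1208 to 2186 CPM in ARE-/- and 471 to 631 CPM in WT uterus, and 684 to 1375 CPM in ARE-/- and 387 to 505 CPM in WT ovary; their part in the level of Cxcl16 was not tested.

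Cxcr6 (ENSMUSG00000048521, chromosome 9, 123635540 to 123640825, plus strand), the receptor of CXCL16, separated the genotypes in both tissues. Levels in uterus libraries were 11.3, 23.6 and 28.4 CPM in ARE-/- replicates 1, 2 and 3, 7.06, 7.29 and 10.35 CPM in ARE+/- replicates, and 5.68, 5.08 and 4.86 CPM in WT replicates. Levels in ovary libraries were 6.825, 12.4 and 4.86 CPM in ARE-/- replicates 2, 3 and 6, 3.76, 4.18 and 3.80 CPM in ARE+/- replicates 1, 2 and 4, and 3.605, 2.37 and 1.96 CPM in WT replicates. The ARE+/- levels sat just above WT in both tissues, well below the highest ARE-/- libraries. It rose by 2.02 ± 0.34 in ARE-/- uterus (edgeR adjusted p = 0.013) and by 1.60 ± 0.35 in ARE-/- ovary (adjusted p = 0.020) on the log2 scale. In ARE+/- mice 0.66 ± 0.33 for the uterus (adjusted p = 0.42) and 0.57 ± 0.35 for the ovary (adjusted p = 0.49) were not called. The uterus call ended without WT replicate 1 (2.08, adjusted p = 0.0717) or WT replicate 3 (1.97, adjusted p = 0.0838), and the ovary call without WT replicate 2 (1.51, adjusted p = 0.0697), WT replicate 3 (1.41, adjusted p = 0.0808) or ARE-/- replicate 3 (1.13, adjusted p = 0.0503).

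Ccl5 (ENSMUSG00000035042, chromosome 11, 83416604 to 83421344, minus strand) was lower in every ovary group than in the same group of the uterus by its mean. The uterus gave 38.1, 25.8 and 46.1 CPM in ARE-/- replicates 1, 2 and 3, 11, 15.3 and 22.96 CPM in ARE+/- replicates, and 5.79, 8.28 and 5.10 CPM in WT replicates. The ovary gave 16.5, 27.3 and 15 CPM in ARE-/- replicates 2, 3 and 6, 7.32, 4.33 and 10.3 CPM in ARE+/- replicates 1, 2 and 4, and 0.818, 1.15 and 0.878 CPM in WT replicates. No genotypes overlapped in either tissue. The log2 fold change against WT was 2.52 ± 0.34 in ARE-/- uterus (edgeR adjusted p = 0.0046) and 4.37 ± 0.38 in ARE-/- ovary (adjusted p = 2e-04). In ARE+/- mice it was 1.36 ± 0.33 for the uterus (adjusted p = 0.088, not called) and 2.94 ± 0.36 for the ovary (adjusted p = 0.0047). The calls in ARE-/- uterus, ARE-/- ovary and ARE+/- ovary held without any 1 library.

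**Figure D2:**
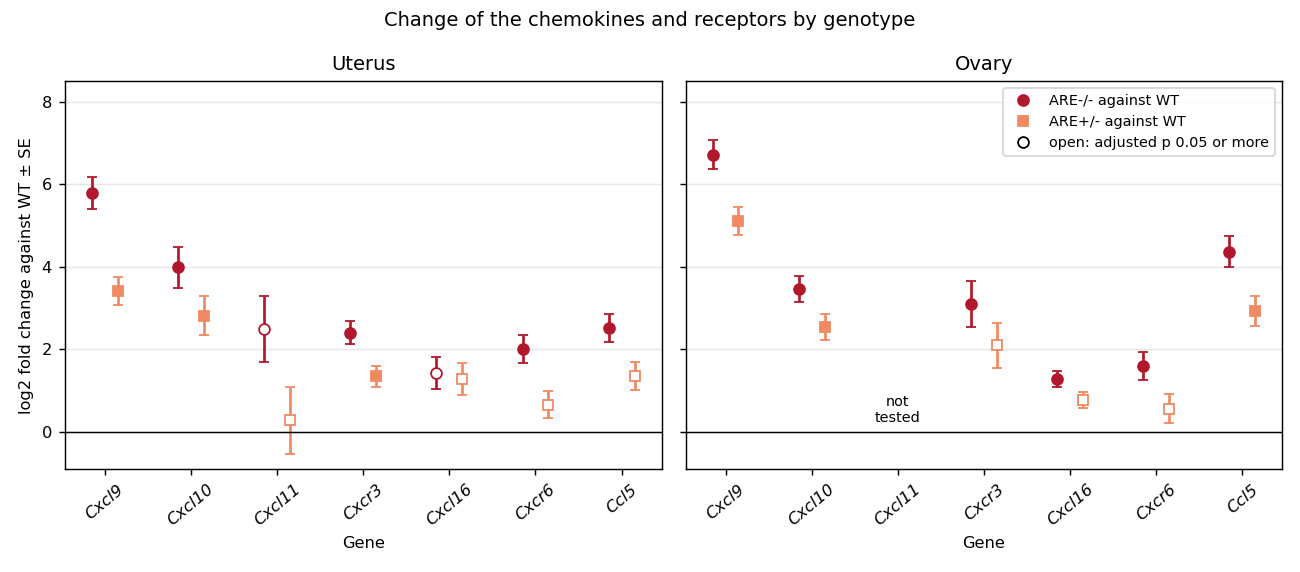
Log2 fold change against WT with its SE for each gene in the uterus (left) and the ovary (right), for ARE-/- (circles) and ARE+/- (squares); open symbols had an edgeR adjusted p of 0.05 or more. Each ARE-/- value lies above the ARE+/- value of the same gene and tissue, from 1.43 against 1.29 for Cxcl16 to 5.79 against 3.41 for Cxcl9 in the uterus.

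Without the library that stood apart, ARE-/- replicate 1, the ARE-/- uterus values were 5.51 for Cxcl9, 4.18 for Cxcl10, 2.39 for Cxcr3, 2.31 for Cxcr6 and 2.49 for Ccl5, and all 5 calls held. Cxcl16 was at 1.66 there (edgeR adjusted p = 0.0671) and Cxcl11 at 2.41 (adjusted p = 0.181). Without ovary ARE-/- replicate 3 the values were 6.55 for Cxcl9, 3.24 for Cxcl10, 2.39 for Cxcr3, 1.19 for Cxcl16 and 4.03 for Ccl5, all still called. Cxcr6 was at 1.13 there (edgeR adjusted p = 0.0503) and lost its call.

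The order of the genes by level changed with genotype when CPM was divided by exon length. In WT uterus Cxcl16 led with 13.5 ± 1.84 CPM per kb (SD, n = 3), followed by Ccl5 with 12 ± 3.15, which overlapped it, then Cxcr6 with 2.70 ± 0.221, Cxcr3 with 1.51 ± 0.285, Cxcl10 with 1.11 ± 0.431, Cxcl9 with 0.513 ± 0.0729 and Cxcl11 with 0.0277 ± 0.0149. In ARE-/- uterus Ccl5 led with 68.9 ± 19.2 CPM per kb, and Cxcl16 with 36.2 ± 21.5, Cxcl9 with 28.3 ± 10.3, Cxcl10 with 17.8 ± 7.25, Cxcr6 with 10.9 ± 4.55 and Cxcr3 with 8.01 ± 1.08 followed, each overlapping its neighbour. By its mean Cxcl9 stood below both receptors in WT uterus and above both in ARE-/- uterus. In ARE+/- uterus Cxcl16 with 32.8 ± 11.7 CPM per kb and Ccl5 with 30.9 ± 11.4 led without separating, clear of Cxcl10 with 7.88 ± 3.69, Cxcl9 with 5.45 ± 1.66, Cxcr6 with 4.26 ± 0.952 and Cxcr3 with 3.84 ± 0.711, of which each overlapped the next. In ARE-/- ovary the order was Ccl5 with 36.8 ± 12.7 CPM per kb, Cxcl9 with 29.1 ± 7.48, Cxcl16 with 24.1 ± 6.37, Cxcl10 with 15.3 ± 3.42, Cxcr3 with 6.05 ± 4.12, Cxcr6 with 4.16 ± 2.03 and Cxcl11 with 0.0860 ± 0.0344. The first 4 overlapped their neighbours, and the gap below Cxcl10 was clear of overlap. In ARE+/- ovary Cxcl16 led with 17.0 ± 2.61 CPM per kb, followed by Ccl5 with 13.7 ± 5.60, Cxcl9 with 9.51 ± 2.62 and Cxcl10 with 8.13 ± 2.80, again each overlapping the next, and then by Cxcr3 with 3.04 ± 1.30 and Cxcr6 with 2.03 ± 0.121. In WT ovary Cxcl16 stood alone at 9.87 ± 0.459 CPM per kb, with Ccl5 next at 1.78 ± 0.328, then Cxcl10 at 1.39 ± 0.440 and Cxcr6 at 1.37 ± 0.444, and then Cxcr3 at 0.705 ± 0.286 and Cxcl9 at 0.276 ± 0.0900. There Ccl5 overlapped Cxcl10, and Cxcl10 overlapped Cxcr6. Cxcr3 also overlapped Cxcl10 in WT uterus, and Cxcr6 in ARE-/- and ARE+/- ovary.

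ARE-/- and ARE+/- mice were also compared directly. In the uterus 6 of 7 genes, all but Cxcl16, had every ARE-/- library above every ARE+/- library (4.77% of genes tested), yet edgeR called 0 of 7, as it did for 0% of genes tested. Of the 7, 6 had an unadjusted p under 0.05, and DESeq2 called 3 (0.771% of all genes). Cxcl9 had the largest difference, 2.38 ± 0.32 (edgeR adjusted p = 0.47, unadjusted p = 2.5e-05), followed by 2.21 for Cxcl11, 1.36 for Cxcr6, 1.18 for Cxcl10, 1.16 for Ccl5, 1.06 for Cxcr3 and 0.14 for Cxcl16. In the ovary 4 genes, Cxcl9, Cxcl10, Cxcr6 and Ccl5, separated the genotypes in this way (6.32% of genes tested). edgeR called 0 of 6, where 0.0491% of genes rose, 5 had an unadjusted p under 0.05, and DESeq2 called 2 (0.815%). The Cxcl9 difference there was 1.62 ± 0.27 (edgeR adjusted p = 0.14), followed by 1.42 for Ccl5, 1.04 for Cxcr6, 1.00 for Cxcr3, 0.91 for Cxcl10 and 0.50 for Cxcl16.

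On the linear CPM scale the mean of ARE+/- mice lay between those of ARE-/- and WT mice for each of the 7 genes, and its rise over WT is given as a share of the ARE-/- rise. In the uterus the share was 17.8% for Cxcl9, 19.0% for Cxcr6, 33.2% for Ccl5, 35.8% for Cxcr3, 40.6% for Cxcl10, 85.0% for Cxcl16 and 4.73% for Cxcl11. In the ovary it was 23.6% for Cxcr6, 32.0% for Cxcl9, 34.1% for Ccl5, 43.6% for Cxcr3, 48.6% for Cxcl10, 50.1% for Cxcl16 and 37.5% for Cxcl11, which rests on few counts. Single libraries moved several of these shares by over 1.5 times. The uterus share of Cxcl16 was 186% without ARE-/- replicate 3, where ARE+/- mice averaged more (88.6 CPM) than ARE-/- mice (64.4 CPM), and 55.6% without ARE+/- replicate 3. That of Cxcr6 was 12.4% without uterus ARE+/- replicate 3 and 39.7% without ovary ARE-/- replicate 3, and the ovary share of Cxcr3 was 76.6% without ARE-/- replicate 3. For Cxcl11 the shares ran from -4.59% to 12.5% in the uterus, negative without WT replicate 3 or ARE+/- replicate 3 and above 1.5 times the value without WT replicate 1 or ARE+/- replicate 2, and from 8.29% (without ARE+/- replicate 1) to 59.0% (without ARE+/- replicate 4) in the ovary. On the log2 scale ARE+/- was tested against the midpoint of ARE-/- and WT. edgeR called 0 of 7 genes in the uterus and 0 of 6 in the ovary, as it did for 0% of all genes in each tissue, while 1 and 3 genes had an unadjusted p under 0.05 and DESeq2 called 0 and 1 (0.502% and 0.199% of all genes). The largest deviation was that of Cxcl9 in the ovary, 1.74 ± 0.24 above the midpoint (edgeR adjusted p = 0.38, unadjusted p = 4.6e-05).

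The tissues were set against each other in a fit of all 18 libraries. Uterus and ovary libraries may come from the same animals, but the labels give no such link, and the fit took them as independent. In WT mice 4 of 7 genes were lower in the ovary than in the uterus, where 11.9% of all genes were lower and 13.3% higher. Ccl5 differed by -2.89 ± 0.38 on the log2 scale (edgeR adjusted p = 6.1e-05), a call that held in all 24 alternatives. Cxcr6 differed by -1.12 ± 0.36 (adjusted p = 0.032), Cxcr3 by -1.24 ± 0.44 (adjusted p = 0.049) and Cxcl9 by -1.03 ± 0.36 (adjusted p = 0.046). Without 1 library the calls were lost for 5, 13 and 9 of the 18 libraries, in that order of genes: with values from -1.17 to -0.94 for Cxcr6 (without uterus WT replicate 1, 2 or 3, or ovary WT replicate 2 or 3), from -1.37 to -0.98 for Cxcr3 and from -1.15 to -0.82 for Cxcl9. Not called were 0.17 ± 0.41 for Cxcl10 (adjusted p = 0.82), -0.59 ± 0.33 for Cxcl16 (adjusted p = 0.21) and -2.56 for Cxcl11 (adjusted p = 0.16). The largest adjusted p among the lost calls of Cxcr6, Cxcr3 and Cxcl9 was 0.125, 0.176 and 0.165. Natural killer cell markers summed to 3.66 to 6.85 CPM in WT ovary and 36.0 to 49.96 CPM in WT uterus, with none at 0, and their part in these differences was not tested. For the 7 genes no difference of the genotype effect between tissues was called by edgeR. For ARE-/-, edgeR called 0 of 7 differences of effect (0.169% of all genes), with 1 at an unadjusted p under 0.05 and 1 called by DESeq2 (3.36% of all genes). That gene was Ccl5, for which the ovary effect minus the uterus effect was 1.84 ± 0.50 (edgeR adjusted p = 0.13, DESeq2 adjusted p = 0.0273). For ARE+/-, edgeR called 0 of 7 (0.00375% of all genes), with 2 at an unadjusted p under 0.05 and 0 called by DESeq2 (0.803%), and for Cxcl9 the difference was 1.70 ± 0.47 (edgeR adjusted p = 0.34).

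Ratios of counts within a library do not depend on scaling to depth. The 5 ratios in each tissue were tested with an exact permutation of the 9 libraries over the genotypes, adjusted by Benjamini-Hochberg over the 10 tests, and 4 of 10 passed. The smallest p that 1680 arrangements allow is 0.0036. The ligands Cxcl9 and Cxcl10 were compared first. In the ovary there were 3.04, 3.45 and 4.43 counts of Cxcl9 for each count of Cxcl10 in ARE-/-, 2.02, 2.16 and 2.59 in ARE+/-, and 0.392, 0.384 and 0.377 in WT. The genotypes were far apart and the WT libraries nearly equal (exact permutation p = 0.0036, the smallest possible, adjusted p = 0.036). In the uterus the ratio was 5.70, 2.12 and 2.29 in ARE-/-, 1.43, 1.59 and 1.14 in ARE+/-, and 1.69, 0.584 and 0.800 in WT, with ARE+/- inside the WT range (exact permutation adjusted p = 0.06).

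The receptors were set against Cd3e, a subunit of the T cell receptor complex. The ratio of Cxcr6 to Cd3e was lower in mice with the altered allele. In the uterus it was 1.23, 1.67 and 1.76 in ARE-/-, 1.77, 1.58 and 2.10 in ARE+/-, and 3.80, 2.66 and 2.41 in WT (exact permutation adjusted p = 0.036). In the ovary it was 1.15, 1.28 and 1.02 in ARE-/-, 1.71, 1.79 and 0.882 in ARE+/-, and 2.84, 2.94 and 3.76 in WT (exact permutation adjusted p = 0.036). Neither ARE genotype overlapped WT in either tissue. The uterus call was lost without WT replicate 1, ARE+/- replicate 1 or 3, or ARE-/- replicate 1 or 2 (adjusted p 0.05 to 0.0833), and the ovary call without WT replicate 2 or 3, ARE+/- replicate 1 or 2, or ARE-/- replicate 2 or 6 (adjusted p 0.0536 to 0.0714). The ratio of Cxcr3 to Cd3e gave no such call, with mean log2 values of 0.11 ± 0.46, 0.55 ± 0.13 and 0.53 ± 0.14 in ARE-/-, ARE+/- and WT uterus (SD, n = 3 each, exact permutation adjusted p = 0.3). In the ovary they were 0.46 ± 0.47, 0.82 ± 0.20 and 0.53 ± 0.05 (exact permutation adjusted p = 0.45). Cxcr3 to Cxcr6 did not pass in the uterus (exact permutation adjusted p = 0.36) or the ovary (adjusted p = 0.06).

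Ccl5 was set against Cd8a, which encodes a chain of the CD8 co-receptor of cytotoxic T cells. In the uterus there were 2.89, 1.54 and 2.67 counts of Ccl5 for each count of Cd8a in ARE-/-, 2.88, 3.56 and 4.53 in ARE+/-, and 24.1, 15 and 12.6 in WT. WT uterus lay far above both other genotypes (exact permutation adjusted p = 0.036). The call was lost without ARE+/- replicate 3 (exact permutation adjusted p = 0.0595). In the ovary the ratio was 1.90, 2.22 and 2.17 in ARE-/-, 1.65, 1.44 and 3.27 in ARE+/-, and 1.74, 1.84 and 1.44 in WT, with ARE+/- spanning both other groups (exact permutation adjusted p = 0.65). Cd8a averaged 0.376 ± 0.160 CPM in WT uterus and 0.558 ± 0.0847 CPM in WT ovary (SD, n = 3 each).

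**Figure D3:**
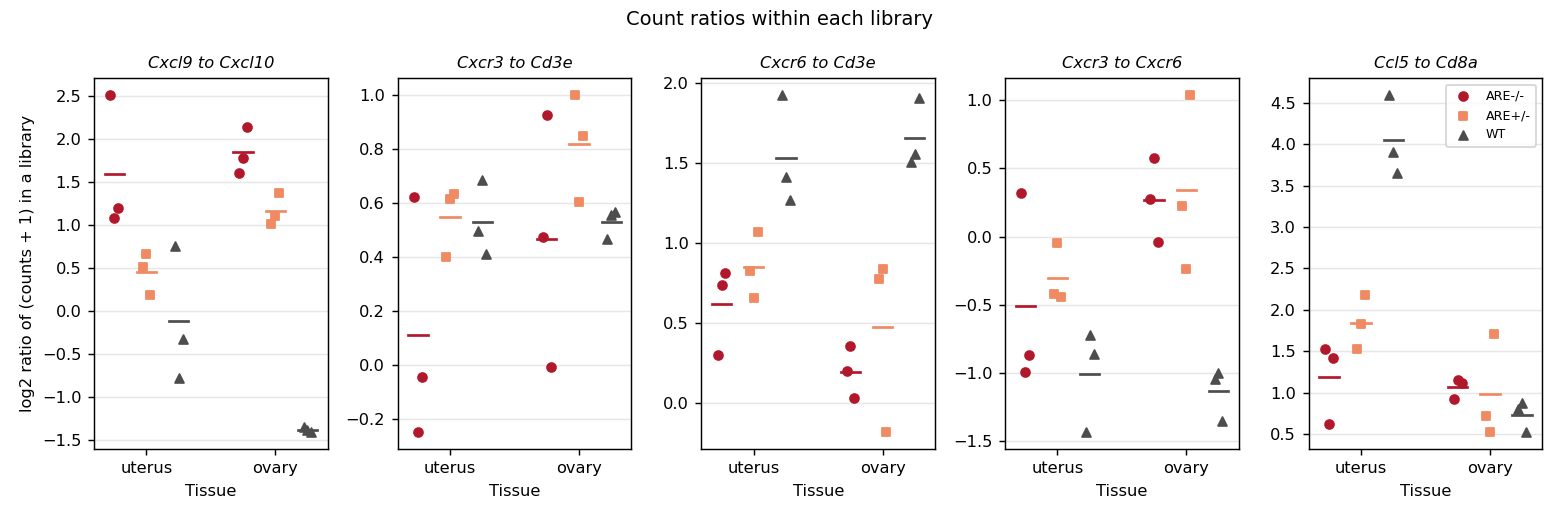
Log2 ratio of counts (each plus 1) in every library for 5 pairs of genes, by tissue, with ARE-/- (circles), ARE+/- (squares) and WT (triangles) from left to right in each tissue and bars at the mean of 3 libraries. The Cxcl9 to Cxcl10 ratio of WT ovary sits at -1.41 to -1.35, below all 6 other ovary libraries, and the Ccl5 to Cd8a ratio of WT uterus at 3.66 to 4.59, above all 6 other uterus libraries.

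Ccr3, a receptor of CCL5 best known from eosinophils, was called in ARE-/- ovary and not in ARE-/- uterus. The ovary effect minus the uterus effect was 5.33 on the log2 scale, a call lost in 16 of 24 alternatives. Ovary counts were 28, 100 and 112 in ARE-/-, 24, 8 and 16 in ARE+/- and 4, 2 and 2 in WT. The ovary genotypes were separate, and the log2 fold change for ARE-/- was 4.83 ± 0.75 (edgeR adjusted p = 0.0047), a call that no alternative ended. Uterus counts were 58, 424 and 162 in ARE-/-, 1160, 694 and 702 in ARE+/- and 228, 532 and 276 in WT. ARE+/- uterus lay above both other genotypes there, and the ARE-/- change was -0.52 ± 0.53 (adjusted p = 0.64). Ccr1, which also binds CCL5 and is found on myeloid cells, was not called, at 2.36 ± 0.59 in ARE-/- uterus (adjusted p = 0.058) and 1.05 ± 0.33 in ARE-/- ovary (adjusted p = 0.073).

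Among the other chemokines and chemokine receptors, none that was called fell. The lists that follow were counted for ARE-/- against WT, where 3.36% of all genes tested rose and 0.391% fell in the uterus. In the ovary 6.31% rose and 4.15% fell. The median log2 fold change of all genes tested was 0.04 in the uterus and 0.02 in the ovary. Of 11 other chemokine receptors tested in the uterus 4 rose (median 1.55), from 1.63 ± 0.31 for Cxcr4, a homing receptor of many leukocytes (edgeR adjusted p = 0.022), to 2.78 ± 0.64 for Ccr4, found on helper and regulatory T cells (adjusted p = 0.045). Of 10 tested in the ovary 4 rose (median 1.58), from 1.51 ± 0.23 for the monocyte receptor Ccr2 (adjusted p = 0.0051) to 4.05 ± 0.55 for Xcr1, a receptor of cross-presenting dendritic cells (adjusted p = 0.0035). Of the other CXC and CX3C ligands, 1 of 12 rose in the uterus (median 1.52), the neutrophil attractant Cxcl1 by 3.79 ± 0.69 (adjusted p = 0.017). In the ovary 2 of 11 rose (median 0.43), Cxcl15 by 2.54 ± 0.60 (adjusted p = 0.027) and Cx3cl1, the ligand of CX3CR1, by 0.50 ± 0.12 (adjusted p = 0.024). Of the other CC and XC ligands 4 of 18 rose in the uterus (median 1.36) and 7 of 18 in the ovary (median 1.54). In both tissues the extremes among those called were Ccl8, which attracts monocytes and T cells, at 2.18 ± 0.50 for the uterus (adjusted p = 0.044) and 3.80 ± 0.64 for the ovary (adjusted p = 0.012), and Ccl6 at 1.15 ± 0.25 (adjusted p = 0.035) and 1.35 ± 0.30 (adjusted p = 0.024) in the same order of tissues. The Ccr2 call held without any 1 library, and the Xcr1 call did too, at 4.71 without WT replicate 2. The Ccr4 call was lost without any 1 of the 9 libraries (2.45 to 3.62, adjusted p 0.0532 to 0.204), and the Cxcr4 call without WT replicate 1 or 3 (1.64 each, adjusted p 0.116 and 0.113). The Cxcl1 call was lost without WT replicate 1 (3.62, adjusted p = 0.108) or WT replicate 3 (4.35, adjusted p = 0.0602), and its value was 2.90 without ARE-/- replicate 3. The Cxcl15 call needed WT replicate 1 and ARE-/- replicates 2 and 3 (2.40 to 2.54 when 1 of them was left out, adjusted p up to 0.113), and its value was 3.35 without WT replicate 3, and Cx3cl1 was lost without WT replicate 1 or 3 or ARE-/- replicate 3 or 6 (0.40 to 0.48, adjusted p up to 0.12). Ccl8 was lost without any 1 of 6 uterus libraries (1.73 to 2.30, adjusted p up to 0.19) and without any WT replicate of the ovary (3.63 to 3.98, adjusted p up to 0.055). Ccl6 was lost without any 1 of 7 uterus libraries (0.95 to 1.20, adjusted p up to 0.181) and any 1 of 5 ovary libraries (1.08 to 1.44, adjusted p up to 0.105).

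**Figure D4:**
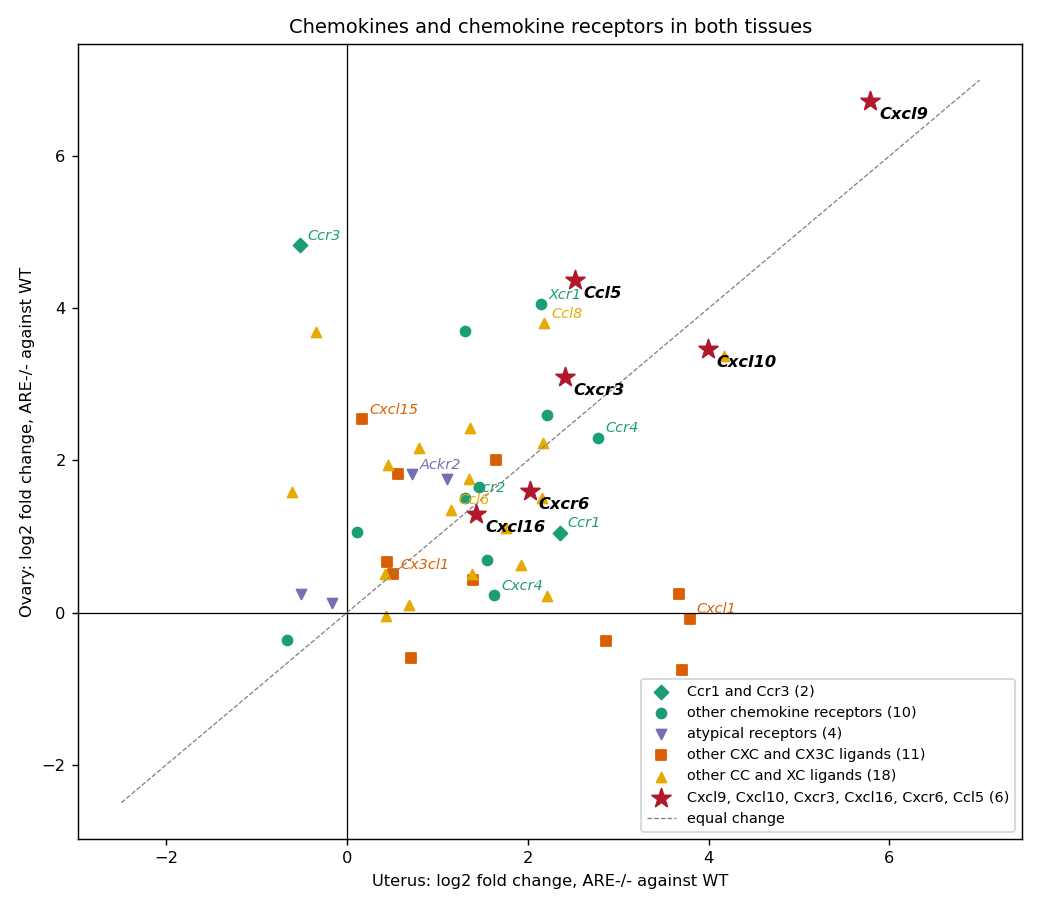
Log2 fold change of ARE-/- against WT in the uterus (horizontal axis) and the ovary (vertical axis) for the chemokines and chemokine receptors shown, with the genes of the CXCR3, CXCR6 and CCL5 group as stars; the dashed line marks equal change. Cxcl9 lies farthest out at 5.79 and 6.72, Ccr3 lies at -0.52 and 4.83, and Cxcl11 is absent because it was not tested in the ovary.

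Chemokines are also shaped after secretion by decoy receptors and proteases. Among 4 atypical receptors, which take up chemokines without signalling, 0 were called in the uterus (median 0.27) and 1 rose in the ovary (median 1.00), Ackr2, which clears CC chemokines, by 1.82 ± 0.23 (edgeR adjusted p = 0.0021), a call kept without any 1 library. Of 5 enzymes known to cut or shed chemokines, Mmp9 rose in the uterus by 1.27 ± 0.30 (adjusted p = 0.047). In the ovary 2 were lower, Mmp12, the macrophage elastase, at -1.83 ± 0.47 (adjusted p = 0.045) and Adam10, the sheddase of CXCL16, at -0.32 ± 0.08 (adjusted p = 0.039). Each of these 3 enzyme calls was lost without single libraries, 7 of 9 for Mmp9 (1.07 to 1.28, adjusted p up to 0.214), 6 of 9 for Mmp12 (-2.06 to -1.59, adjusted p up to 0.122) and 6 of 9 for Adam10 (-0.37 to -0.29, adjusted p up to 0.126). Dpp4, the protease that trims CXCL9, CXCL10 and CXCL11, was not called, at 0.32 ± 0.33 for the uterus (adjusted p = 0.63) and 0.67 ± 0.24 for the ovary (adjusted p = 0.11). Of 16 genes for G proteins, integrins and other parts of chemokine receptor signalling and adhesion, 8 rose in ARE-/- uterus (median 1.05) and 10 in ARE-/- ovary (median 1.31), and 0 fell. Of all genes tested 3.36% rose and 0.391% fell in ARE-/- uterus, and 6.31% rose and 4.15% fell in ARE-/- ovary.

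For each of the 6 genes tested in both tissues, the genes of most like pattern were found as those with the smallest root mean square difference of log2 CPM, each taken relative to its WT mean in the tissue, over 18 libraries and 21744 genes. For Cxcr3 these were Cd3e (0.32 log2 units), Ltb (0.33) and Trbc2 (0.38), of which Cd3e and Trbc2 encode parts of the T cell receptor. For Cxcr6 Zap70 (0.40) and Ctsc (0.41) were among them, and for Ccl5 Gimap7 (0.35), AW112010 (0.47) and Cd2 (0.49). For Cxcl10 they were Gm43302 (0.38), Gbp6 (0.39), a guanylate-binding protein, and Gm4951 (0.41). For Cxcl9 they were Serpina3f (1.05), H2-Eb2 (1.22) and Tgtp2 (1.33). The measure grows with the size of a gene's own change, whose root mean square was 4.35 for Cxcl9 and 1.12 for Cxcr6, so these differences are not comparable between the 6 genes. For Cxcl16 the nearest was Zmynd15 (0.18), with which it shares reads, then Ctsc (0.22) and Tnfrsf1b (0.24).

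The authors' deposited table of a likelihood-ratio test over genotypes gives the adjusted p-value for each gene and a cluster for genes under 1e-04. In the uterus the authors' deposited table lists 1.83e-39 for Cxcl9, 8.38e-12 for Cxcl10, 1.89e-13 for Cxcr3, 4.47e-06 for Cxcr6 and 1.7e-08 for Ccl5, all in cluster 1 of 463 genes, and 0.0469 for Cxcl11 and 0.0272 for Cxcl16. In the ovary the authors' deposited table lists 1.42e-78 for Cxcl9, 1.03e-22 for Cxcl10, 9.39e-07 for Cxcr3, 7.22e-07 for Cxcl16 and 3.12e-26 for Ccl5, all in cluster 1 of 569 genes, with 0.000596 for Cxcr6 and no value for Cxcl11.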

How the data were processed

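Per the labels' protocols, total RNA was purified with a Zymo kit and 18 paired-end libraries were sequenced. Tissue, genotype and replicate number came from the labels, and since 3 mice per genotype are named in the design text, libraries of a group were taken as separate animals. The deposited whole-number counts per gene were made with featureCounts 2.0.4 on GENCODE M32, per the file headers. By their options, multi-mapped reads and reads over several genes entered every place or gene, each mate was counted alone and strand was ignored, so 70.9% of uterus and 72.1% of ovary counts from 1 to 20 were even. Alignment used STAR and the build mm10, per the submitters' processing notes, whereas M32 annotates a later build, so coordinates are given as the files state them. The deposited p-values come from a likelihood-ratio table of the authors, whose processing notes name DESeq2, and its deposited log2 values were not used, since their contrast is not stated. A symbol was found for 52029 of 57010 IDs.

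Tests on counts used edgeR 4.0.16 under R 4.3.3 (TMM, filterByExpr, robust quasi-likelihood F-test) over the 9 libraries of a tissue, or all 18 for tissue differences, with Benjamini-Hochberg adjustment over 24277 uterus, 24457 ovary or 26682 joint genes and a threshold of 0.05. Count ratios used an added count of 1 and SciPy 1.17.1. Scripts were tested on simulated data. The alternatives were DESeq2 1.42.0, its size factors, other filters, halved counts, a joint fit, a replicate block and leaving out each library. The 7 genes and all lists were chosen with earlier results of these data known. Of the lists, the text names the called genes with the largest and smallest change, plus Ifng, Ccr1, Ccr3 and Dpp4 whatever their result. Some genes that these rules select are not reported here.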

Additional observations from a re-analysis of the deposited data

Results flagged for a closer look

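For Ccr3, a receptor of CCL5, the ARE-/- effect differed between the tissues by a test of the difference itself. The log2 fold change of ARE-/- against WT was 4.83 ± 0.75 in the ovary and -0.52 ± 0.53 in the uterus, and the ovary effect minus the uterus effect was 5.33 ± 0.98 (edgeR adjusted p = 0.045). Mean levels were 2.01 ± 1.14 CPM in ARE-/-, 0.403 ± 0.228 in ARE+/- and 0.0678 ± 0.0299 in WT ovary, and 5.57 ± 4.37, 19.7 ± 2.12 and 8.01 ± 2.90 CPM in the same order of genotypes in the uterus (SD, n = 3 each). The call was lost without any 1 of 14 libraries (5.02 to 5.74, adjusted p 0.0511 to 0.123). Kept were the calls without uterus WT replicate 2, uterus ARE-/- replicate 1, uterus ARE-/- replicate 2 (6.14, adjusted p = 0.0097) or ovary ARE+/- replicate 2. It was also lost with halved counts (5.28, adjusted p = 0.0513).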

How the results depend on the processing

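Counts of called genes among the 7 were compared between settings. With DESeq2, whose calls cover 9.97% of genes for ARE-/- against WT uterus and 16.9% in the ovary, 5 instead of 3 passed for ARE+/- against WT in the uterus and 5 instead of 3 in the ovary, 3 instead of 0 for ARE-/- against ARE+/- in the uterus and 2 instead of 0 in the ovary, 1 instead of 0 for the ovary midpoint, and 1 instead of 0 for the ARE-/- effect between tissues. Without a filter on low counts 1 passed for ARE-/- against ARE+/- uterus (1 also with all 18 libraries in 1 fit), and 2 of 4 for WT ovary against WT uterus (2 also with halved counts). Leaving out single libraries gave 4 to 5 calls for ARE-/- uterus, 5 to 6 for ARE-/- ovary, 0 to 4 for ARE+/- uterus (0 without WT 1 or WT 3), 3 to 5 for ARE+/- ovary (5 without ARE-/- 6), 1 to 4 for WT ovary against WT uterus (1 without any uterus WT library or ovary WT 3) and 1 to 7 for the ratios (1 without uterus ARE+/- 3, 7 without ovary ARE-/- 3). Same-numbered libraries deviated from their group means with correlations of -0.04 to 0.35 in the uterus, -0.19 to 0 in the ovary and 0.02 to 0.19 between tissues. Correlations over so few pairs cannot settle whether the numbers pair the samples, and the main fits used no block. With the replicate number as a block, 1 instead of 3 passed for ARE+/- ovary, where calls over all genes numbered 59 with the block and 417 without, and where Cxcl10 and Ccl5 lost theirs, and 1 instead of 0 for the ARE-/- effect between tissues (Ccl5, 2.01, adjusted p = 0.0334), where calls numbered 520 with the block and 45 without. The block also ended the calls of Cxcr3 in ARE+/- uterus, of Cxcl9 for WT ovary against WT uterus (-1.04, adjusted p = 0.0903) and of the Ccr3 difference between tissues (4.44, adjusted p = 0.0943). Of 1322 single-gene values under an alternative 1223 kept direction and side of the threshold, 54 lost a call, 26 gained one and 19 changed sign. Most of these values belong to comparisons that were not called in the main fits and so could not lose a call. Single calls against WT were lost in 0 to 8 of 16 alternatives, with the most for Cxcr3 in ARE+/- uterus. Calls for WT ovary against WT uterus were lost in 0 (Ccl5) to 16 (Cxcr3) of 24. Sign changes are given with the range over left-out libraries. For ARE+/- against WT uterus Cxcl11 ran from -0.31 to 0.69, negative without WT 3 (-0.06) or ARE+/- 3, and for ARE-/- against ARE+/- uterus Cxcl16 ran from -0.47 to 0.47, negative without ARE+/- 1 (-0.04) or ARE-/- 3. Against the midpoint, uterus Ccl5 ran from -0.22 to 0.32, and with the block ovary Cxcr3 stood at -0.08 and Cxcl16 at -0.09. For the ARE-/- effect between tissues Cxcr3 ran from -0.001 to 1.04 and Cxcl16 from -0.37 to 0.46. For the ARE+/- effect Cxcl10 ran from -0.57 to 0.14, with 0.17 under the block, and Cxcr6 from -0.26 to 0.20, with 0.17 under the block. For WT ovary against WT uterus Cxcl10 ran from -0.11 to 0.37, and the ovary ratio of Cxcr3 to Cd3e, ARE-/- minus WT, from -0.29 to 0.17. None of these was called, and the cause was not tested. Depth limits Cxcl11, at 32 counts or fewer per library.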

Other observations

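Markers of the cells that carry or answer these chemokines were counted for ARE-/- against WT, where 3.36% of all genes tested rose and 0.391% fell in the uterus and 6.31% rose and 4.15% fell in the ovary. Macrophage markers rose for 6 of 9 genes in the uterus (median log2 fold change 1.57) and 6 of 9 in the ovary (median 1.18). Natural killer cell markers rose for 6 of 7 genes in the ovary (median 2.32), while in the uterus 1 of 7 rose and 1 fell (median 0.54). Their sums were 16.7 to 28.0 CPM in ARE-/- and 3.66 to 6.85 CPM in WT ovary, and 30.2 to 66.2 CPM in ARE-/- and 36.0 to 49.96 CPM in WT uterus, so that the genotypes overlapped in the uterus and not in the ovary. Dendritic cell markers rose for 2 of 7 genes in the uterus and 1 of 7 in the ovary (medians 0.93 and 1.32). Neutrophil markers rose for 2 of 5 and 1 of 5 (medians 5.04 and 1.52), and B cell markers for 0 of 4 and 1 of 4 (medians 1.93 and 2.60). Few calls did not mean equal levels. Neutrophil sums were 161 to 218 CPM in ARE-/- and 24.4 to 42.7 in WT uterus, and 18.4 to 30.3 and 5.42 to 9.78 in the ovary. B cell sums were 6.56 to 15.5 CPM in ARE-/- and 2.12 to 3.18 in WT uterus, and 7.84 to 55.5 and 3.29 to 4.53 in the ovary. Of 6 endothelial markers 0 were called in either tissue (medians -0.23 and -0.08). In the uterus 5 of 5 adipocyte markers and 5 of 5 red blood cell markers also rose. Of 9 genes of the interferon gamma list, 4 rose in ARE-/- uterus (median 0.94) and 6 in ARE-/- ovary (median 1.46). The altered gene, Ifng, is in this list and is 1 of those that rose in each tissue. In the uterus the kinases Jak1 at -0.46 and Jak2 at -0.47 were not called.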
